A study of Homo sapiens with 12 samples.

Results

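Fibrinogen is encoded by FGA, FGB and FGG, which were the only members examined, 3 of the 19251 genes listed for 12 RNA sequencing libraries of human ovarian cancer cell lines. The members were chosen by function, as the chains of 1 protein, but also with results of these libraries in view, since FGA and FGB had been seen to rise with ascites in the line CAOV3. That rise is therefore described below without a p-value or a confidence interval. CAOV3, labelled as an epithelial high grade serous line, and TOV21G, labelled as an epithelial clear cell line, were both labelled wild type and grown with 10% fetal bovine serum. In each line 3 libraries came from untreated cells and 3 from cells exposed for 16 h to 10% ovarian cancer ascites, the fluid that collects in the abdomen of patients. The labels do not say whether the untreated cells received a control fluid, whether the ascites was cleared of cells or how many patients it came from. They also do not say that the libraries of a group came from separate cultures on separate days, so p-values measure the spread between these libraries only.

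Fibrinogen is a plasma protein made mainly by liver cells. Each molecule holds pairs of an alpha, a beta and a gamma chain, encoded by FGA, FGB and FGG, which are joined by disulphide bonds in the endoplasmic reticulum before secretion, and thrombin converts it to fibrin, the fibre of blood clots. In the liver the 3 neighbouring genes are switched on together, through liver factors such as C/EBP proteins, and they are raised in the acute-phase response by interleukin 6 acting through the receptor subunit gp130 and the transcription factor STAT3. Free chains are kept in the cell, so all 3 are needed for export.

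The 12 libraries held 26697609 to 34491304 reads, recovered from the deposited normalised counts, and between 18153 and 18426 genes were detected per library. Levels are the deposited normalised counts, which correct for the depth of a library but not for the length of a gene. The epithelial markers EPCAM, CDH1, KRT7, KRT8, KRT18 and KRT19 were detected in every group. They summed to 153270 to 154113 in CAOV3 controls and to 176985 to 187539 with ascites, without overlap, and to 11293 to 12749 and 10698 to 12301 in TOV21G. The part of these markers in the fibrinogen rise of CAOV3 was not tested. As a sum, the serous markers PAX8, WT1 and MUC16 went against the label of CAOV3, at 33.8 to 39.9, against 7041 to 7535 in TOV21G controls and 8692 to 9587 with ascites. At a limma adjusted p under 0.05, 2 of these 3 were higher in TOV21G controls than in CAOV3 controls and 1 did not pass. Of all tested genes 40.8% were higher in this way.

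The starts of the 3 genes are shown because their promoters are where liver factors and STAT3 are known to act, and because the chains did not move to the same extent. Each run below is the 250 bases before the RefSeq start on GRCh38.p14, written 5′ to 3′ on the strand of the gene, and capitals mark every match, on either strand, to CTGGGA, the core of the type II interleukin 6 response element, which reads TCCCAG on the other strand. The RefSeq starts lie inside the outermost GENCODE start of each gene. FGB is at chr4:154562730-154562979 on the plus strand, FGA at chr4:154590743-154590992 on the minus strand and FGG at chr4:154612657-154612906 on the minus strand.
FGB: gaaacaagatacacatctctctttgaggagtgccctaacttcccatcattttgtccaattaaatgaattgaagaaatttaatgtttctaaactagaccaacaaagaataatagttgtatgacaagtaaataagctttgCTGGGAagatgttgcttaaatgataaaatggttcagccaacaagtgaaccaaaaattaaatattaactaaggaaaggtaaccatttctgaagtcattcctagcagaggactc
FGA: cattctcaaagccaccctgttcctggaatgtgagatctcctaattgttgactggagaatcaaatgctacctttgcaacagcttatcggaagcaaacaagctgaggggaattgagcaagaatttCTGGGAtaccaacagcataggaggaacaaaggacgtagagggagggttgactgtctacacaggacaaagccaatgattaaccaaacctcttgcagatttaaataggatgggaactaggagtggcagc
FGG: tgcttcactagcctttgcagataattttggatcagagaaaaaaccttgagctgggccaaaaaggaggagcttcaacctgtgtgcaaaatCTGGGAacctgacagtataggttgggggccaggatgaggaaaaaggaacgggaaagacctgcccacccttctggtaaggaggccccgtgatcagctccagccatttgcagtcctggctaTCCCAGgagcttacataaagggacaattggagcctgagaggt
The letters CTGGGA began 112 bases before the start in FGB, 127 in FGA and 161 in FGG, and FGG held them a second time on the other strand, 42 bases before the start. Among 27303 RefSeq promoters of the same length 28.8% held CTGGGA. The C/EBP pattern TTNNGNAA occurred in all 3 windows and in 33.6% of all promoters, and the STAT pattern TTCNNNGAA occurred in FGA only, as TTCCTGGAA 231 bases before the start, and in 6.78% of all promoters. These matches describe letters and not binding.

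FGB, the beta chain, was the most abundant chain in every library. In CAOV3 controls its normalised count was 79.4, 65.6 and 104, and in CAOV3 with ascites it was 1157, 1026 and 1275. The lowest ascites library was therefore far above the highest control. In TOV21G it was 4805, 4151 and 4495 in controls and 4369.8, 4896 and 4137 with ascites, so the groups overlapped and every TOV21G library, treated or not, was above every CAOV3 library. In CAOV3 the log2 difference, ascites minus control, was 3.80 (SE 0.13, n = 3 and 3), which is 13.9-fold. It was the 2nd largest rise among the 17616 genes tested. In TOV21G the same difference was -0.01 (SE 0.13), with a limma p-value, adjusted by the Benjamini-Hochberg method, of 1 and a confidence interval of 0.816 to 1.22-fold.

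FGA, the alpha chain, followed the same order of groups at lower levels. In CAOV3 controls its normalised count was 34.05, 29.04 and 42.6, and with ascites 301, 246 and 354, again without overlap. In TOV21G it was 473, 429.8 and 502 in controls and 438, 530.1 and 435 with ascites, which overlapped. The log2 difference in CAOV3 was 3.06 (SE 0.15, n = 3 and 3), or 8.33-fold, the 7th largest rise of the 17616. In TOV21G it was -0.00 (SE 0.15), with a limma adjusted p of 1 and a confidence interval of 0.794 to 1.25-fold. The level of FGA with ascites thus differed less between the lines than in controls, 300.4 ± 53.8 in CAOV3 against 468 ± 54.0 in TOV21G (SD, n = 3 each).

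FGB and FGA passed the filter, which asks for a value of at least 10 in at least 3 libraries, and FGG did not. As background, 1.73% of tested genes changed there at an adjusted p under 0.05, 0.636% upwards and 1.1% downwards, and 11.4% had all ascites libraries above all controls. In TOV21G neither member passed the test, where 0.409% of genes did. A bulk library cannot tell more cells that express a gene from more RNA per cell.

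FGG, the gamma chain, was close to the limit of detection throughout and did not pass that filter. No read fell on it in any CAOV3 control, where 3 reads would correspond to a normalised count of 2.97 to 3.40 per library. With ascites CAOV3 held 21, 6 and 21 reads, a normalised count of 23.0, 6.13 and 21.5. Compared with a floor of 3 reads over the 3 controls, the CAOV3 ascites mean of 16.9 ± 9.32 was at least 15.8-fold higher. In TOV21G there were 4, 3 and 2 reads in controls and 1, 4 and 2 with ascites, normalised counts of 4.34, 3.15 and 1.79, then 0.828, 3.54 and 1.79. These are too few reads for a change of FGG in TOV21G to be read from them. When the filter was dropped, limma gave a log2 difference of -0.47 (SE 0.49) and an adjusted p of 0.790 there.

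The order of the groups was therefore not the same for the 3 chains. FGB and FGA were lowest in CAOV3 controls, higher in CAOV3 with ascites and highest in both TOV21G groups, whose means did not differ beyond their spread. FGG was highest in CAOV3 with ascites, where every library was above every TOV21G library. The FGG mean there was 16.9, against 3.09 ± 1.27 in TOV21G controls and 2.05 ± 1.38 in TOV21G with ascites, although FGB was 3.88-fold lower in CAOV3 with ascites than in TOV21G with ascites. This last pair of values is a description without a test.

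**Figure D1:**
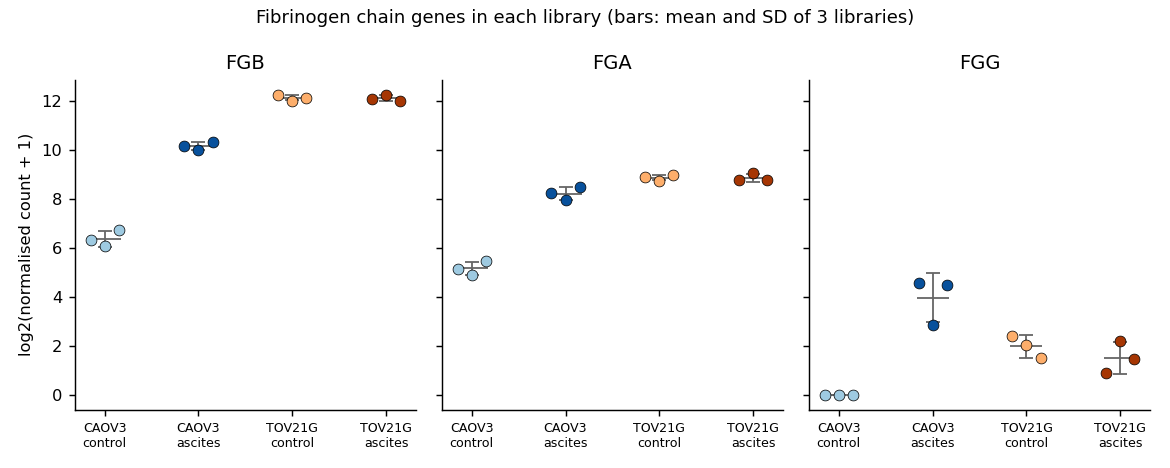
Expression of FGB, FGA and FGG in each of the 12 libraries, as log2 of the normalised count plus 1 (y axis), by line and treatment (x axis); points are libraries, and bars give the mean and SD of 3. FGB and FGA were higher in CAOV3 with ascites than in its controls, by 3.80 and 3.06, and lower than in TOV21G, while FGG reached its highest levels in CAOV3 with ascites.

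The untreated lines already differed. FGB was 83.0 ± 19.4 in CAOV3 controls and 4484 ± 327 in TOV21G controls (SD, n = 3 each), a log2 difference of 5.76 (SE 0.13), or 54.2-fold. FGA was 35.2 ± 6.83 and 468 ± 36.1, a log2 difference of 3.71 (SE 0.15), or 13.1-fold. These contrasts share the CAOV3 controls with the rise described above, so no p-value is given for FGB and FGA. Differences between the lines were common, since 82.2% of tested genes passed the limma test between the controls, 40.8% with the higher level in TOV21G. All TOV21G controls were above all CAOV3 controls for 40.9% of tested genes. By size FGB ranked 956th and FGA 2143rd of 17616.

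Levels per kilobase of exon place the chains among other genes. FGB stood at 30.6 normalised counts per kilobase in CAOV3 controls, the 38.7th percentile of all listed genes, and at 425.6 with ascites, the 82.1st percentile. In TOV21G it stood at 1656 in controls and 1649.8 with ascites, the 96.6th and 96.7th percentiles. FGA moved from 8.90 per kilobase, the 23.6th percentile, to 75.9, the 51.7th, in CAOV3, and was at 118 in both TOV21G groups, the 57.4th and 57.3rd percentiles. FGG reached at most the 17.4th percentile, in CAOV3 with ascites. In TOV21G the beta chain was thus among the most abundant messages while the alpha chain was near the middle of the distribution and the gamma chain near the bottom.

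The spread between libraries was larger than read counting alone gives for FGB. Its coefficient of variation was 23.4% in CAOV3 controls, 10.8% in CAOV3 with ascites, 7.30% in TOV21G controls and 8.71% in TOV21G with ascites, against 11.3%, 3.01%, 1.50% and 1.39% from counting. For FGA in CAOV3 controls, which rests on 100 reads in all, the spread of 19.4% was close to the counting error of 17.3%.

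The chains are needed together, so their balance was compared within each library, where differences in depth cancel. Of the summed level per kilobase, FGB made up 77.4% ± 0.682 in CAOV3 controls, 84.2% ± 1.24 in CAOV3 with ascites, 93.3% ± 0.380 in TOV21G controls and 93.3% in TOV21G with ascites (SD, n = 3 each). FGA made up 22.6% ± 0.682, 14.9% ± 0.867, 6.67% ± 0.398 and 6.68% in the same order. FGG made up 0.897% ± 0.454 in CAOV3 with ascites, and 0.0482% and 0.0314% in the TOV21G groups. No library came near equal levels of the 3 chains.

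The ratio of FGB to FGA per kilobase was 3.41, 3.30 and 3.57 in CAOV3 controls and 5.62, 6.08 and 5.26 in CAOV3 with ascites. It was 14.9, 14.1 and 13.1 in TOV21G controls and 14.6, 13.5 and 13.9 with ascites. The lines did not overlap, and within CAOV3 the treated libraries lay between the CAOV3 controls and TOV21G. Between the lines the log2 ratio of FGA to FGB was lower in TOV21G by 3.18-fold (log2 difference -1.67), and it was lower in 6 of 6 TOV21G libraries than in any CAOV3 library. No p-value is given, since the CAOV3 values in this ratio are those in which the members were seen to rise. With the lengths of the longest coding transcripts in place of all exons, the mean ratio of FGB to FGA was 4.37, 7.21, 17.9 and 17.8 in the 4 groups, and the difference between the lines was the same by construction.

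In TOV21G no difference in balance between ascites and control was detected. The log2 ratio of FGA to FGB differed by 0.00 between ascites and control, with an exact permutation p of 1 in a design of 3 against 3 that cannot go below 0.1. The ratio of FGG to FGB differed by -0.73 and that of FGA to FGG by 0.74, each with an exact permutation p of 0.4, or 0.6 after Benjamini-Hochberg adjustment over the 3 ratios. Both rest on the few reads of FGG in TOV21G (9 in all controls and 7 in all ascites libraries), and without ascites replicate 1 they were -0.21 and 0.25, and without ascites replicate 2 -1.18 and 1.16. In CAOV3 the log2 ratio of FGA to FGB was lower with ascites by 1.65-fold (log2 difference -0.72), which restates the larger rise of FGB and was not tested.

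As a share of all reads on the 3 genes, FGG made up 48 of 4217 in CAOV3 with ascites, 1.14% with a 95% Wilson interval of 0.860% to 1.51%. In CAOV3 controls it made up 0 of 336, with a 95% Wilson interval that reaches up to 1.13%. It made up 9 of 14816 in TOV21G controls, 0.0608% (0.0320% to 0.115%), and 7 of 17053 with ascites, 0.0411% (0.0199% to 0.0847%). The depth of the CAOV3 controls therefore could not show a share as low as that of TOV21G, and their upper limit lies inside the interval of CAOV3 with ascites. These intervals cover counting error only. When 1 was added to each value so that ratios with FGG could be formed, the ratio of FGG to FGB was 17.1-fold lower in TOV21G than in CAOV3, but the ratio in CAOV3 controls is then set by the added 1.

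**Figure D2:**
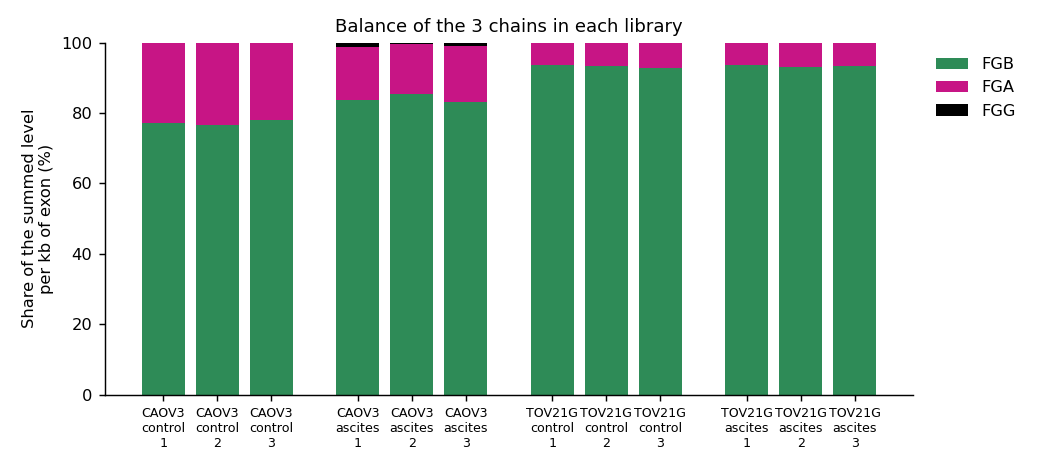
Share of each chain in the summed level per kilobase of exon (y axis, percent) in each library (x axis, with its replicate number). FGA takes 22.6% on average in CAOV3 controls, 14.9% in CAOV3 with ascites and under 8% in every TOV21G library, and FGG is a thin layer seen in CAOV3 with ascites.

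The 3 genes lie next to each other on chromosome 4, and their neighbours were read in the same way. In GENCODE release 29 on GRCh38, FGB is at chr4:154562956-154571086 on the plus strand, FGA at chr4:154583126-154590766 on the minus strand and FGG at chr4:154604134-154612967 on the minus strand, a cluster of 50012 bases. None of the 3 overlaps another annotated gene. PLRG1, a splicing factor gene and the nearest protein-coding neighbour on the FGB side, at chr4:154535006-154550435, was at 2619 ± 100.2 in CAOV3 controls and 2716 ± 77.2 with ascites, with a log2 difference of 0.05 (SE 0.05) and a limma adjusted p of 0.720. In TOV21G the log2 difference of PLRG1 was -0.04 (SE 0.05, adjusted p 0.826), and its controls differed between the lines by -0.07 (adjusted p 0.196). LRAT, which encodes an enzyme that makes retinyl esters and lies on the FGG side at chr4:154626945-154753118, was at 0 in all CAOV3 controls and at 0.341 with ascites. It was at 94.5 ± 11.8 in TOV21G controls and 91.4 ± 7.60 with ascites (limma adjusted p 0.993). DCHS2, the next gene beyond PLRG1, was under the filter, at 4.08 and 9.37 in CAOV3 controls and ascites, and RBM46, the next beyond LRAT, was not analysed here. The rise in CAOV3 was thus seen on each of the 3 chain genes and not on PLRG1, whose reads were ample, while LRAT was too low in CAOV3 to be read. DCHS2, under the filter like FGG, also had a higher mean with ascites, 9.37 ± 1.80 against 4.08 ± 4.22 in controls (SD), and was not tested. Whether PLRG1 and the chain genes differed in response was not tested.

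**Figure D3:**
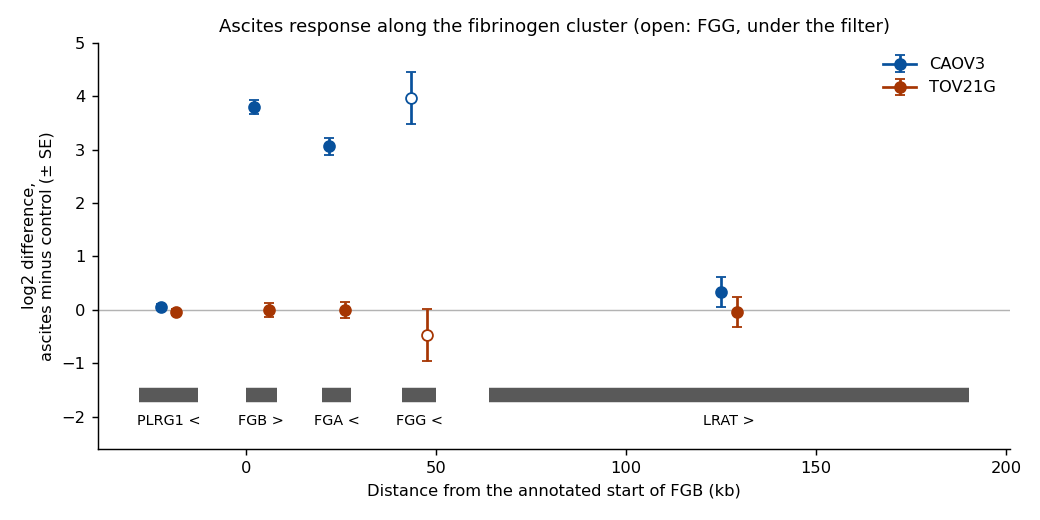
Log2 difference between ascites and control (y axis, with SE) of the chain genes and their nearest protein-coding neighbours, by distance from the start of FGB in kilobases (x axis); grey blocks are the genes, the signs > and < give the strand, and open points mark FGG, which was under the filter. In CAOV3 FGB (3.80) and FGA (3.06) stand apart from PLRG1 (0.05), and in TOV21G FGB and FGA lie at 0.

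FGA and FGB also varied together among libraries of the same group. Over the 12 libraries the deviations of their log2 levels from the group means were correlated, with Pearson's r at 0.925 and Spearman's rho at 0.958, each with an exact permutation p of 0.00231 over 1296 arrangements within groups. Only 1 pair of measures was examined in this way, and the test does not tell agreement of this pair from variation shared by many genes. Without the 2 libraries farthest from the median of FGB, CAOV3 controls 2 and 3, r was 0.917 and rho 0.939. Within lines, r was 0.948 over the 6 CAOV3 libraries and 0.839 over the 6 TOV21G libraries. Among 13018 genes ranked by their r with FGB, FGA was 23rd over all libraries and 268th in CAOV3, but 4193rd in TOV21G, where the median r of all genes with FGB was 0.606. Over the 12 libraries 67.5% of these genes had an r with FGB above 0.

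In both lines the deviations of FGB moved with the main axis of variation within groups, which held 49.5% of the variance within groups in TOV21G and 29.4% in CAOV3. In TOV21G FGB was highest in control 1 and ascites 2, whose scores on the axis were -16.6 and -14.4, and lowest in control 2 and ascites 3, with scores of 14.9 and 11.7. The long noncoding RNA KCNQ1OT1 was at 95.4, 656 and 234 in the TOV21G controls and at 731, 235 and 1511 in the ascites libraries, in the opposite order to FGB within each group. In CAOV3 FGB was highest for its group in control 3 and ascites 3, with scores of -13.1 and -1.61, and lowest in control 2 and ascites 2, with scores of 9.17 and 8.32. Ascites 1, with a score of -6.71, was near its group mean. The part of these axes in the agreement of FGA and FGB was not tested.

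**Figure D4:**
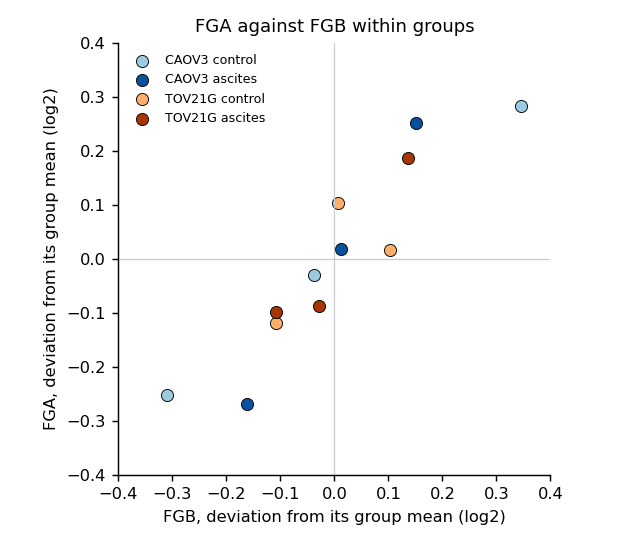
Deviation of FGA (y axis) against deviation of FGB (x axis) from their group means on the log2 scale; each point is 1 of 12 libraries, coloured by group. Libraries high in FGB for their group were high in FGA, with a Pearson r of 0.925.

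Genes that act on, with or downstream of fibrinogen were taken from 8 lists that hold 127 genes, of which 93 were tested, the members left out. In CAOV3 13 of the 93 changed with ascites, 12 up and 1 down, against 1.73% of all tested genes, and their median log2 difference was 0.04 against -0.00 over all genes. In TOV21G 2 of the 93 changed, 1 up and 1 down, against 0.409% of all genes, 0.142% upwards and 0.267% downwards, with a median of -0.01 against -0.02. The lists were chosen with earlier results of these libraries known, so the counts are descriptions.

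Of 12 transcription factors known to act on the chain genes, 2 rose in CAOV3. STAT3, which carries the signal of interleukin 6 to the nucleus, rose from 1806 ± 47.7 to 2431 ± 82.0 (SD, n = 3), a log2 difference of 0.43 with a limma adjusted p of 1.75e-04. CEBPD, a C/EBP factor of the acute-phase response, rose from 99.4 ± 9.50 to 163 ± 6.58, a log2 difference of 0.71 with an adjusted p of 6.30e-04. CEBPB, also a C/EBP factor, was at 1646 and 1921, with an adjusted p of 0.155. CEBPA was at 594 and 468 (adjusted p 0.753). With edgeR and with DESeq2 on the recovered reads 5 of the 12 were called, the further ones being CEBPB (log2 difference 0.22, edgeR adjusted p 0.0387), HNF4A (-0.31, 2.42e-04) and FOXA1 (-0.22, 0.0487). The shares of all tested genes called by edgeR or DESeq2, or at an unadjusted p under 0.05, are not given. Counts of that kind, here and below, therefore cannot be compared with a background.

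In TOV21G 1 of the 12 factors changed: FOXA2 fell from 17.3 ± 2.53 to 8.37 ± 2.70, a log2 difference of -0.998 with a limma adjusted p of 0.0351, and it lost the call in 3 of 6 fits without a TOV21G library and with edgeR and DESeq2. The untreated lines carried different factors beside their different fibrinogen levels. CEBPA was at 594 in CAOV3 controls and 6.02 in TOV21G controls, CEBPB at 1646 and 738, and CEBPD at 99.4 and 1320.0. HNF4A, a liver nuclear receptor, was at 2473 and 19.1. Thus the line with the higher fibrinogen levels held more CEBPD and STAT3 (7532 against 1806) and less HNF4A, CEBPA and CEBPB, and 11 of the 12 factors passed the test between the lines, where 82.2% of all genes did.

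Of 16 tested genes of interleukin 6 family signalling, 3 rose in CAOV3 and none passed the limma test in TOV21G, where 3 had an unadjusted p under 0.05 and edgeR and DESeq2 each called 1, IL6. SOCS3, a feedback inhibitor that STAT3 induces, rose from 151 ± 10.0 to 444 ± 24.98, a log2 difference of 1.55 with a limma adjusted p of 3.78e-06. In TOV21G SOCS3 was at 261 ± 24.1 and 232 ± 27.3, a log2 difference of -0.17 with an adjusted p of 0.629. The difference between these responses, -1.73 (SE 0.14), had an adjusted p of 8.37e-05, and 0.545% of all tested genes passed this test of the difference, 0.307% with the lower response in TOV21G. IL6ST, which encodes gp130, the shared receptor subunit of the family, rose from 3109 ± 141 to 3702 ± 99.6 in CAOV3 (log2 difference 0.25, adjusted p 0.00560), as did STAT3. IL6R, the receptor subunit that binds interleukin 6, was at 331 and 276 in CAOV3 (adjusted p 0.375) and at 66.6 and 67.6 in TOV21G (adjusted p 0.985).

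IL6 itself was at 0 in all CAOV3 controls and at 1.07 ± 1.09 with ascites. In TOV21G it was between 495 and 572 in controls and between 827 and 855 with ascites, without overlap, a log2 difference of 0.68 (SE 0.32). Its limma adjusted p was 0.545 in the fit of both lines and 0.106 in TOV21G alone, where the SE was 0.063. With limma it was 0.0602 at a pseudocount of 5 and 3.24e-04 on TMM-scaled CPM. The adjusted p was 1.35e-04 by edgeR and 1.16e-10 by DESeq2 on the recovered reads. The call of IL6 therefore turns on the scale and the fit as well as on the test. OSMR, the receptor subunit for oncostatin M, was at 2.09 in CAOV3 controls and 3882 in TOV21G controls.

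Of 20 other acute-phase proteins 11 were tested, and 4 rose in CAOV3, all from low levels. LBP, which binds bacterial lipopolysaccharide, rose from 2.97 ± 2.85 to 31.7 ± 5.12, a log2 difference of 3.41. It passed the filter only through the 3 CAOV3 ascites libraries (26.6 to 36.8, against at most 5.67 in the other groups). Its call is therefore not independent of its level there, and no p-value is given for it. C3, the central complement protein, rose from 3.52 ± 2.13 to 15.7 ± 2.99 (2.01, limma adjusted p 0.00305), and SERPINA1, the inhibitor of neutrophil elastase, from 25.4 ± 4.11 to 67.6 ± 20.6 (1.34, adjusted p 0.00407). LRG1 rose from 6.57 ± 4.31 to 18.7 ± 5.06 (1.51, adjusted p 0.0284), but kept the call in only 1 of 6 fits without a CAOV3 library. C3, SERPINA1 and LRG1 also lost the call when CAOV3 was fitted alone, with adjusted p of 0.0961, 0.0858 and 0.162, as did LBP. The median log2 difference of the 11 was 0.87, against -0.00 over all genes.

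In TOV21G 1 of the 11 changed: PTX3, a pentraxin, rose from 1785 ± 77.8 to 2502 ± 201 (log2 difference 0.48, limma adjusted p 0.0387), and it lost the call in each of 6 fits without a TOV21G library. SERPINA1 was at 486 and 495, C3 at 5169.8 and 6026 and LRG1 at 392 and 338 in TOV21G controls and ascites, none past the limma test. C3 passed it with edgeR (log2 difference 0.25, adjusted p 0.0158) and DESeq2. Like FGB and FGA, these 3 were higher in TOV21G controls than in CAOV3 controls, with adjusted p of 2.12e-10, 8.86e-13 and 5.82e-10. Of the 11 genes, 7 were higher in TOV21G controls by limma, where 40.8% of all tested genes were. The other way went 3 of the 11, among them LBP, at 0.299 in TOV21G controls.

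None of the 15 genes for folding, assembly and export passed the limma test in either line, nor were any called by edgeR or DESeq2. At an unadjusted p under 0.05 there were 2 in CAOV3 and 0 in TOV21G, and the median log2 difference was 0.04 in CAOV3 and -0.06 in TOV21G. HSPA5, the chaperone BiP that holds unassembled chains, was at 16723 ± 281 and 17418 ± 278 in CAOV3 (adjusted p 0.720), and LMAN1, a cargo receptor for export from the endoplasmic reticulum, at 7466 ± 328 and 7791 ± 182 (adjusted p 0.555). Of 14 tested genes for fibrin formation, cross-linking and lysis, 2 rose in CAOV3. TGM2, a transglutaminase that can cross-link fibrinogen, rose from 3018 ± 72.0 to 4566 ± 236 (log2 difference 0.60, limma adjusted p 1.09e-04), and PLAU, which encodes urokinase, an activator of plasmin, from 581 ± 25.5 to 779.9 ± 28.5 (0.43, adjusted p 0.00128). In TOV21G none of the 14 passed the limma test, 5 had an unadjusted p under 0.05, and edgeR called PLAU alone (0.20, adjusted p 0.0417) and DESeq2 none. PLG, the plasminogen gene, was not analysed here.

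Of 12 tested fibrinogen receptors and matrix partners, 1 rose in CAOV3: ICAM1, an adhesion molecule that binds fibrinogen, from 50.96 ± 6.31 to 116 ± 15.03 (log2 difference 1.17, limma adjusted p 1.09e-04). In TOV21G ICAM1 was at 1545 ± 116 and 2071 ± 192 (0.42), with an adjusted p of 0.186 by limma, 0.00104 by edgeR and 4.52e-05 by DESeq2, and none of the 12 passed the limma test, 3 having an unadjusted p under 0.05. Of 9 tested proteins with a fibrinogen-like domain, 2 passed the limma test in CAOV3, 1 up and 1 down, and none in TOV21G. Their median log2 difference in CAOV3 was -0.24. The gene that rose was ANGPTL4, an inhibitor of lipoprotein lipase, from 803 ± 38.2 to 1132 ± 24.3 (0.50, limma adjusted p 5.09e-04). In CAOV3 edgeR and DESeq2 each called 2, ANGPTL4 and ANGPTL2, which was lower with ascites (-0.34, edgeR adjusted p 0.0243). None of the 8 tested secreted proteins of the liver outside the acute phase passed the limma test in either line, with 1 at an unadjusted p under 0.05 in each and none called by edgeR or DESeq2, and their median log2 difference in CAOV3 was -0.17. ALB, the albumin gene, was at 10.6 and 5.91 in CAOV3 and at 0 in every TOV21G library.

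**Figure D5:**
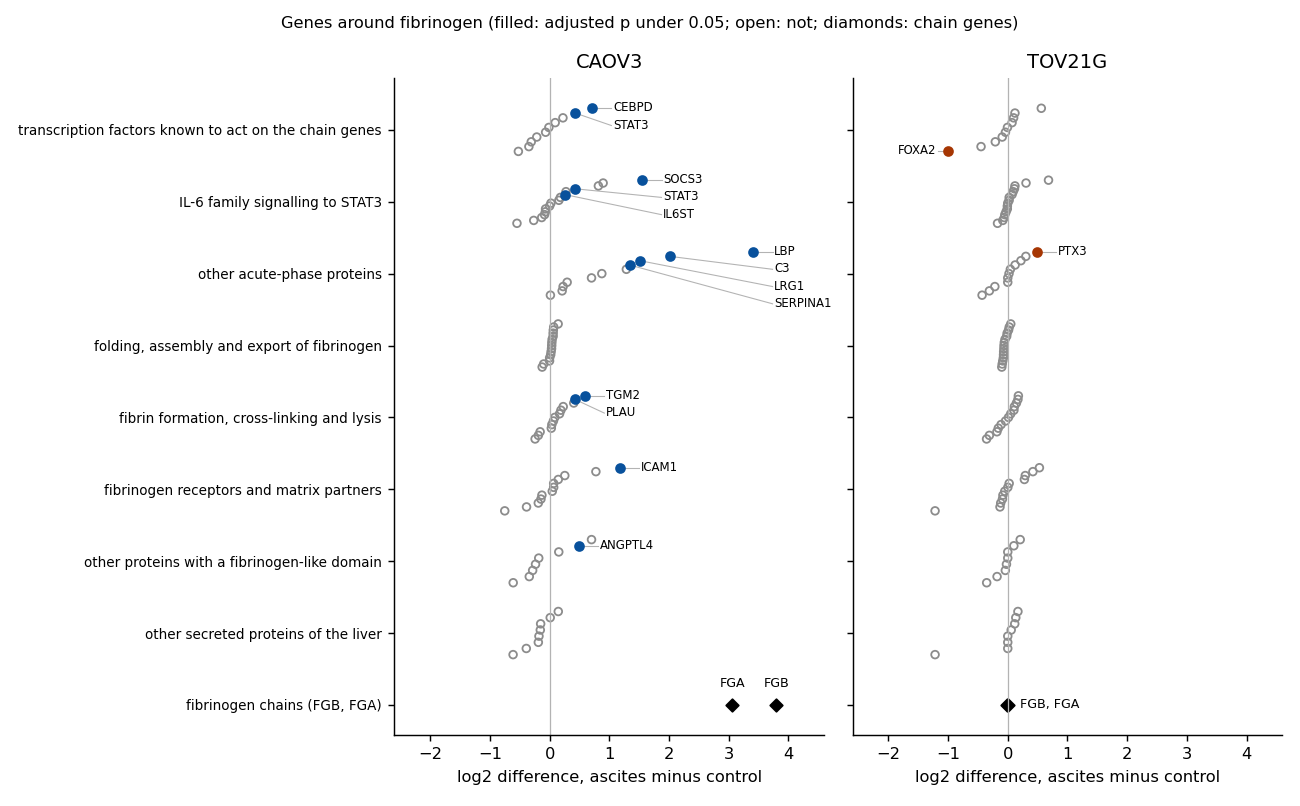
Log2 difference between ascites and control (x axis) of tested genes of 8 lists (y axis) in CAOV3 and TOV21G; filled points passed an adjusted p under 0.05, open points did not, and black diamonds are FGB and FGA; some listed genes are not drawn. FGB (3.80) and FGA (3.06) lie beyond most listed genes in CAOV3, LBP (3.41) lies between them, and both diamonds lie at 0 in TOV21G. LBP passed the filter only through CAOV3 with ascites.

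Markers of other cell types were read in the same libraries. Of 7 hepatocyte markers 5 were listed, with summed levels of 329 to 365 in CAOV3 controls and 278 to 325 with ascites. Of 12 leukocyte markers 3 were listed, with sums of 123 to 144 and 104 to 135. Of 7 markers of red cells and platelets 1 was listed, ITGA2B, at 27.2 to 33.6 and 19.4 to 33.9, and of 5 mesothelial markers 4 were listed, with sums of 62.4 to 76.2 and 47.0 to 68.5. The ranges of controls and ascites overlapped in CAOV3 for each of these lists but that of the hepatocytes, whose sum was lower with ascites. The part of other cell types in the fibrinogen rise was not tested. In TOV21G the hepatocyte markers ALB, TTR and APOH were at 0 in every library and the listed hepatocyte markers summed to 19.9 to 40.4 in controls.

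The genes whose levels were most like those of the 3 chains were ranked by Pearson r with the mean standardised log2 level of the members, as a description. Over the 12 libraries, which share their line and treatment, the nearest of 13017 genes were JAK3 (r 0.925), a kinase of cytokine receptors, PLIN3 (0.915), BDNF (0.912), HK1 (0.912) and PMM2 (0.886), and the gene ranked 100th had an r of 0.744. JAK3 rose in CAOV3 from 103 ± 21.2 to 301 ± 32.8 (log2 difference 1.55) and was at 245 ± 27.7 and 218 ± 12.2 in TOV21G. Among the 5 genes nearest over the 12 libraries, BDNF, a neurotrophin, had the highest r with FGB (0.966) and with FGA (0.965) taken singly. Genes were not ranked against FGB or FGA alone here. Over the 6 CAOV3 libraries alone the nearest of 12454 genes were TGM2 (r 0.999), MUC1 (0.997), PHF5A (0.996), PRKAG2 (0.996) and NOP16 (0.996), but the gene ranked 100th still had an r of 0.973. MUC1, a membrane mucin, rose from 50.1 ± 4.69 to 122 ± 11.0 in CAOV3 (log2 difference 1.27) and was at 402 ± 28.2 and 424 ± 35.8 in TOV21G. No p-value is given for JAK3 or MUC1, since both were picked by their likeness to the members in these libraries.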

How the data were processed

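Per the submitters' processing notes, Trim Galore, cutadapt, STAR, HTSeq and DESeq were used; versions, genome build, annotation and strandedness are not given in the sources used here. The authors deposited a normalised count (a signal) per gene and library. All values were whole multiples of 1 step per library (100% within 0.001 reads), so whole reads were recovered, and the steps matched median-of-ratios size factors over the 12 libraries. Of 19251 identifiers, 19087 were named from a gene name table, 136 from GENCODE release 29, and 28 stayed unnamed. Log2(value + 1) was fitted with limma 3.58.1 in R 4.3.3 (trend in the prior, 4 group means, all libraries) for the 17616 genes at 10 or more in at least 3 libraries, with Benjamini-Hochberg adjustment per contrast. Fold changes are on this scale, which understates changes of low genes. Levels per kilobase used the union of GENCODE exons. Chain ratios were tested by exact permutation within TOV21G; the planned permutation between the lines was run but its p is not given, since it uses the CAOV3 values in which the members were seen. Alternatives were edgeR 4.0.16 and DESeq2 1.42.0 on recovered reads, TMM-scaled CPM, other pseudocounts, no filter, lines fitted alone, the replicate block and leaving out libraries. The limma script was tested on simulated data. Replicate pairs differed by more than read sampling (chi-square per degree of freedom 1.81 to 22.6), so none was counted as a copy. Without strand, reads of a gene that overlaps another (such as IL6 or C3) cannot be told apart from those of its partner; the chain genes overlap none. Named genes were the members, 2 protein-coding neighbours on each side, 10 fixed factors and signalling genes, called genes of the 8 lists (at most 4 per list and contrast, by size) and the 5 genes of most similar pattern; some listed genes are counted but not reported here. HNF4A, FOXA1, OSMR, ALB, HSPA5 and LMAN1 were named after their values were seen. The members and lists were chosen with earlier results of these data known. Promoters are from RefSeq (GRCh38.p14), and all 3 members matched.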

Additional observations from a re-analysis of the deposited data

Results flagged for a closer look

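The response to ascites differed between the lines for FGB, FGA and genes of the lists, by the limma interaction term, given as the log2 response in TOV21G minus that in CAOV3. For FGB the difference was -3.81 (SE 0.19) and for FGA -3.06 (SE 0.21). These genes were chosen with this difference in view, so no p-value is given. Among the 93 tested genes of the lists 5 passed, all lower in TOV21G, against 0.545% of all tested genes. SOCS3 differed by -1.73 (limma adjusted p 8.37e-05), ANGPTL4 by -0.54 (0.0104), TGM2 by -0.49 (0.0166) and STAT3 by -0.36 (0.0210).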

How the results depend on the processing

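The rise of FGB and FGA in CAOV3 kept its direction in all 14 alternatives each. It was smaller with TMM-scaled CPM, where the added 1 stands for more reads: 3.40 for FGB and 2.33 for FGA, with interactions of -3.38 and -2.31. FGG in CAOV3 was 3.97 with a pseudocount of 1, 4.91 with 0.5 and 2.01 with 5, and between controls 1.98, 2.78 and 0.68, since its CAOV3 controls were at 0. In TOV21G the ascites difference was 0.0197 for FGB and 0.0206 for FGA with TMM-scaled CPM and 0.0205 and 0.0216 with edgeR, each of opposite sign to the main value and with an adjusted p of at least 0.962. Of the joined lists, 2 genes were called in TOV21G, against 4 with DESeq2 (ICAM1, C3, IL6 and PTX3), 5 with edgeR (these and PLAU) and 0 with TOV21G fitted alone. In CAOV3 13 were called, and 10 to 18 under the other settings. The share of all tested genes called under each other setting is not given, so these counts have no background.

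Leaving out 1 library at a time gave 3.64 to 3.97 for FGB, 2.93 to 3.20 for FGA and 3.66 to 4.54 for FGG in CAOV3, and -0.074 to 0.0475, -0.0974 to 0.0471 and -0.81 to -0.15 in TOV21G. Between controls it gave 5.61 to 5.93, 3.58 to 3.85 and 1.77 to 2.23. The interaction ranged from -3.98 to -3.65 for FGB and from -3.20 to -2.94 for FGA. The ratio of FGA to FGB ranged from -1.76 to -1.59 between the lines and from -0.0408 to 0.0502 in TOV21G, where that of FGG to FGB ranged from -1.18 to -0.21 and that of FGA to FGG from 0.25 to 1.16. The calls in the lists ranged from 11 to 14 in CAOV3 and from 0 to 2 in TOV21G.

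No pairing by replicate number was seen, with r from -0.426 to 0.046 between same-numbered libraries and from -0.350 to 0.445 between differently numbered ones. The check cannot exclude a pairing. Deviations of 3 libraries sum to 0, and 1 axis held 49.5% of the variance within groups in TOV21G. With the replicate block, FGB was 3.80 and FGA 3.06 in CAOV3, -0.01 and -0.00 in TOV21G, 5.81 and 3.68 between controls and -3.81 and -3.06 for the interaction, and the lists held 10 calls in CAOV3 and 0 in TOV21G. IL6ST lost its call under the block (adjusted p 0.0998). Depth limits FGG, with at most 48 reads in a group, and FGA in CAOV3 controls, with 100.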
